A study of Mus musculus with 32 samples.

Results

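The ERK pathway output and feedback genes Dusp4, Dusp5, Dusp6, Spry2, Spry4, Spred1, Etv4, Etv5, Egr1 and Fosl1 were followed across 32 mouse tumours. They were chosen by symbol for their place in RAS-ERK signalling, and all 10 were found among the 55103 genes of the table. All 10 also had enough reads to be tested, as did 20474 genes in all. The tumours were grown from KPC36, a mouse line whose name belongs to the KPC family of pancreatic cancer lines, and RNA of whole tumour tissue was sequenced in bulk. The study set out to compare tumours treated with carbon ions, a form of particle radiation, with tumours treated with photons, the radiation of conventional radiotherapy. Each beam had its own untreated controls. The 4 groups of 8 libraries were carbon-ion controls, carbon-ion irradiated tumours, photon controls and photon-irradiated tumours. Tumours were collected at days 4 and 7, per the design text, and the day of each library is not part of the labels used here. A group may therefore mix both days. The library titles were not evenly spread over the groups. Titles beginning with D occurred only in the carbon-ion arm (4 controls and 3 irradiated), and the title numbers of the photon arm ran from 19 to 48 in controls and started at 95 in irradiated tumours, without overlap. In the photon arm a difference by beam and a difference by title series therefore cannot be told apart. What the titles stand for is not stated, and the labels give neither the dose, the host strain, the age nor the genotype of the line.

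ERK is the last kinase of the RAS-RAF-MEK-ERK cascade, which carries signals from growth factor receptors to the nucleus. Active ERK switches on a set of genes quickly, and many of these genes act back on the cascade. The phosphatases DUSP4, DUSP5 and DUSP6 remove the activating phosphates from ERK, the Sprouty and SPRED proteins hold back RAS and RAF further up, and the transcription factors ETV4, ETV5, EGR1 and FOSL1 pass the signal on to other genes. The transcripts are therefore widely used as a readout of ERK activity, although the activity of ERK itself was not measured here.

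Neither beam changed the level of any of the 10 genes past the test, and the 2 calls made among them lay between the 2 sets of untreated tumours. Changes are given as log2 fold changes with their standard error (SE) from a quasi-likelihood model in edgeR fitted to all 32 libraries, and a gene was called at an adjusted p under 0.05. Carbon ions gave 0 calls among the 10 genes, where 0% of the 20474 genes tested were called. Photons also gave 0 calls among the 10, where 3.81% of all genes were called. At an unadjusted p under 0.05 the counts among the 10 were 1 for carbon ions (5.75% of all genes) and 2 for photons (21.5%), and DESeq2 called 0 in either comparison. The difference between the beam effects gave 0 calls (0.0781% of all genes), the irradiated groups set against each other gave 0 (5.08%), and the mean effect of irradiation gave 0 (0.772%). The carbon-ion controls set against the photon controls gave 2 calls, both lower in the former, where 9.14% of all genes were called in either direction and 4.01% were called lower. No test was made of the count of 2 among 10 against that share.

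The median log2 fold change of the 10 genes was 0.038 for carbon ions and -0.022 for photons, beside 0.0066 and -0.00060 over all genes tested. For carbon ions the 10 values ran from -0.21 (Etv4) to 0.28 (Dusp5), with 6 above and 4 below 0. For photons they ran from -0.38 (Egr1) to 0.25 (Dusp4), with 3 above and 7 below 0. In every comparison of 2 groups the ranges of the libraries overlapped for each of the 10 genes. Over all genes, the groups did not overlap for 0.0293% in the carbon-ion arm, 0.474% in the photon arm, 1.31% between the controls and 0.161% between the irradiated groups.

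**Figure D1:**
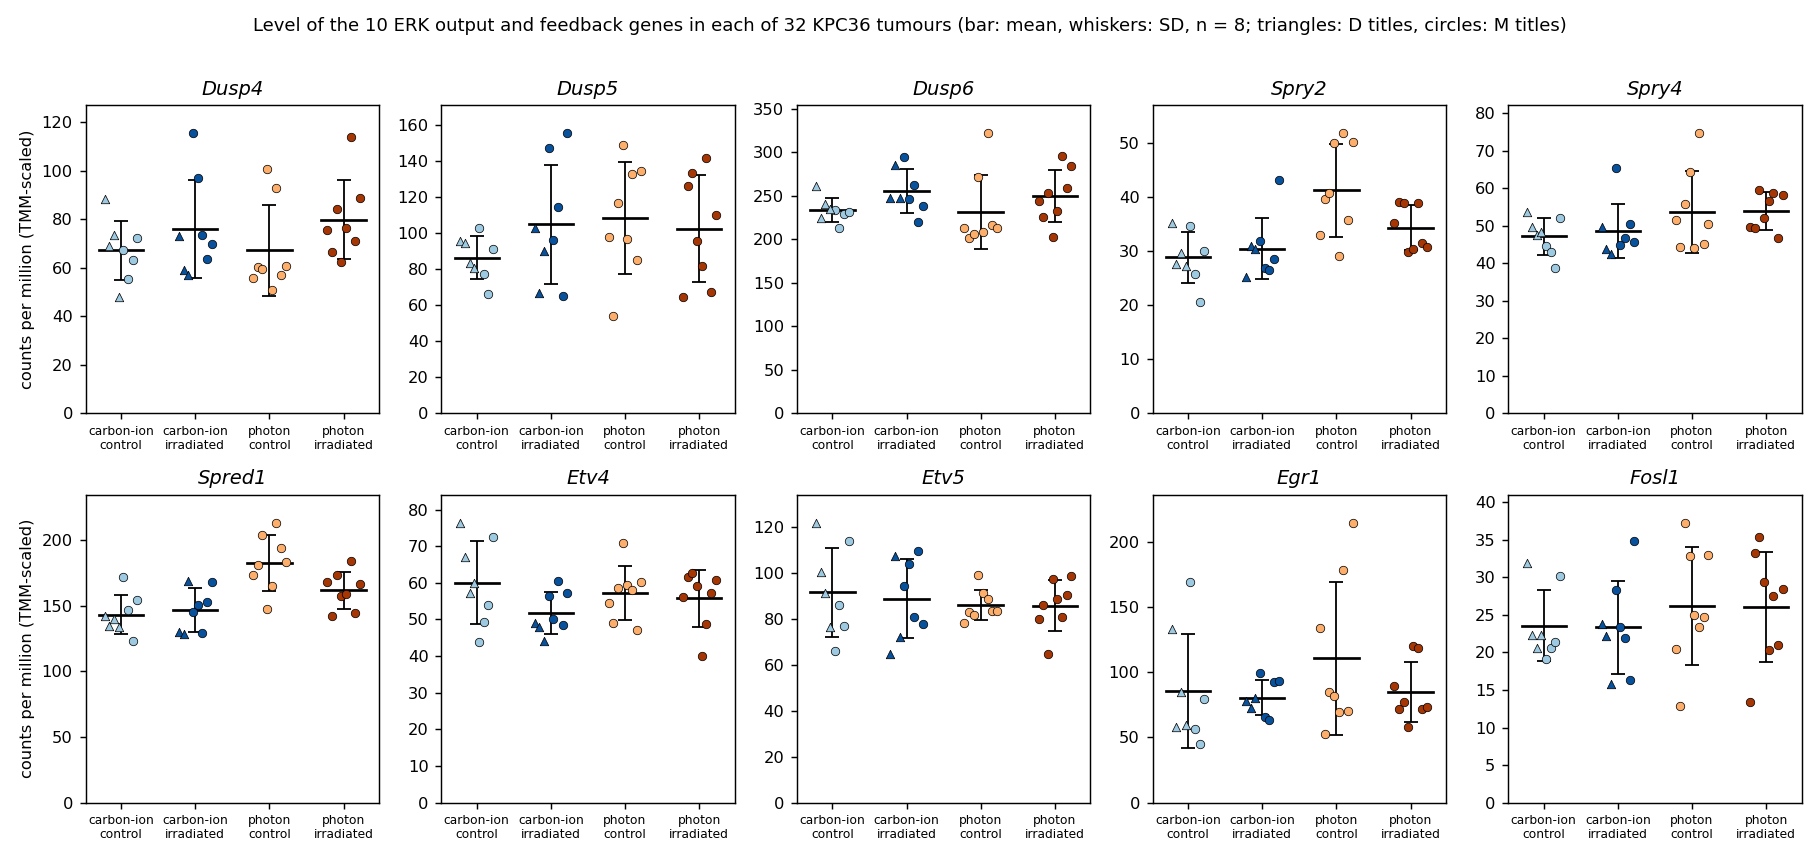
Level of each gene in CPM (vertical axis, counts scaled to library size) in every library, by group, with 1 point per tumour (8 per group) and a bar at the group mean. The Spry2 and Spred1 points of the photon controls sit above most of those of the carbon-ion controls, while for the other 8 genes the clouds of the 4 groups lie over each other.

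The libraries held between 13891863 and 71645903 estimated reads. The lowest estimated count of any of the 10 genes in any library was 445 (Fosl1), so that counting error was at most 4.74% of a value. The 10 genes lay clearly above detection in every tumour. Levels are given as CPM (counts scaled to library size), the count relative to the scaled total of its library. Per kilobase of exon, Dusp6 had the highest level, at 77.4 CPM per kilobase over the 4 group means, followed by Dusp5 at 40.6 and Dusp4 at 26.5. Spry4 (10.7), Fosl1 (12.2) and Spry2 (16.2) had the lowest levels on that scale. The labels call the cells malignant, and all 10 epithelial markers on the list used here were detected, with a mean log2 CPM between 6.21 and 7.81 in the 32 libraries. Fibroblast markers reached 9.19 on the same scale. In such bulk tissue fewer cells of a type and less RNA per cell cannot be told apart. Of the 6 acinar markers only Cela1 passed the filter on low counts. Mean marker scores also differed within the photon arm. From controls to irradiated tumours the mean skeletal muscle score went from 4.89 to 1.02 log2 CPM, with 0 of 8 markers called, 8 at an unadjusted p under 0.05, and overlapping libraries (-0.42 to 7.76 and -1.85 to 5.56). The fibroblast score went from 8.46 to 7.999 (2 of 10 markers called lower, 10 of 10 negative) and the endothelial score from 5.14 to 4.67 (2 of 8 called lower, 8 of 8 negative). The neutrophil score went from 1.94 to 0.94 (3 of 6 markers called lower), the T cell score from -0.045 to -0.86 (2 of 8 called lower, 1 higher) and the macrophage score from 6.24 to 5.75 (2 of 10 called lower). In the carbon-ion arm 0 of the markers on these 6 lists were called.

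Dusp6 encodes a cytoplasmic phosphatase that is specific for ERK, and it had the highest level of the 10. It lies on chromosome 10 at 99263231 to 99267489 (GRCm38, plus strand) and is protein-coding. Its level ran from 213 to 262 CPM (median 232) in carbon-ion controls and from 219.6 to 295 (median 247) after carbon ions. It ran from 202 to 322 (median 213) in photon controls and from 203 to 295 (median 249) after photons. In both arms 7 of 8 irradiated tumours lay above the median of their controls, but the ranges overlapped. The log2 fold change was 0.13 (SE 0.087, edgeR adjusted p = 0.996) for carbon ions and 0.11 (SE 0.087, edgeR adjusted p = 0.498) for photons. The interval of the carbon-ion effect, with 95% confidence, went from a ratio of 0.967 to 1.24, and that of the photon effect from 0.953 to 1.22. A two-sided exact permutation test on log2 CPM of this gene alone gave p = 0.0477 for carbon ions and p = 0.279 for photons (n = 8 per group), unadjusted for the 10 genes. Without 1 library the photon value of Dusp6 ran from 0.072 (without photon-irradiated replicate 6) to 0.20 (without photon control replicate 6), and it was called in no such fit. In the photon controls, replicates 4 and 6 stood at 272 and 322 CPM, and the other 6 lay between 202 and 217.

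Dusp4 and Dusp5, both nuclear phosphatases that are induced by ERK, had wider ranges. Dusp4 (chromosome 8, 34807297 to 34819894) ran from 47.8 to 88.4 CPM (median 68.2) in carbon-ion controls and from 56.9 to 115 (median 71.3) after carbon ions. In the photon arm it ran from 50.8 to 101 (median 59.9) in controls and from 62.4 to 114 (median 76.0) after irradiation. All 8 photon-irradiated tumours lay above the median of the photon controls, yet only 1 lay above the highest control. The log2 fold change was 0.18 (SE 0.15, edgeR adjusted p = 0.997) for carbon ions and 0.25 (SE 0.15, edgeR adjusted p = 0.361) for photons. Averaged over the beams, it was 0.21 for Dusp4 (SE 0.11, edgeR adjusted p = 0.374) and 0.12 for Dusp6 (SE 0.062, edgeR adjusted p = 0.383). These 2 were the highest of the 10 means, and neither passed. The carbon-ion value of Dusp4 was 0.066 without carbon-ion irradiated replicate 4 and 0.40 among M-titled libraries alone, and it was called in neither. Without photon-irradiated replicate 6 the photon value of Dusp4 was 0.16.

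Dusp5 (chromosome 19, 53529109 to 53542431) ran from 66.3 to 103 CPM (median 87.0) in carbon-ion controls and from 65.2 to 155 (median 99.3) after carbon ions. It ran from 53.7 to 149 (median 107) in photon controls and from 64.6 to 142 (median 103) after photons. Its log2 fold change was 0.28 (SE 0.19, edgeR adjusted p = 0.996) for carbon ions, where 4 irradiated tumours lay above the highest control and 1 below the lowest. The carbon-ion value of Dusp5 was 0.18 without carbon-ion irradiated replicate 8 and 0.46 among M-titled libraries alone, again without a call. For photons it was -0.080 (SE 0.19, edgeR adjusted p = 0.845). The standard deviation (SD) within the carbon-ion irradiated group was 33.2 CPM, against 11.7 in its controls. An antisense gene, AC137853.2, overlaps Dusp5 on the other strand, and whether strand was used in counting is not stated.

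The promoter sequences of Dusp5 and Dusp6 are shown because these genes belonged to the pairs that varied together most closely between tumours (below) and because they hold different motifs. They are taken from RefSeq promoters on GRCm38.p6 and end just before the start of each gene in GENCODE, at chr19:53528895-53529108 and chr10:99262981-99263230, both on the plus strand. Capitals mark the motifs found.
Dusp5: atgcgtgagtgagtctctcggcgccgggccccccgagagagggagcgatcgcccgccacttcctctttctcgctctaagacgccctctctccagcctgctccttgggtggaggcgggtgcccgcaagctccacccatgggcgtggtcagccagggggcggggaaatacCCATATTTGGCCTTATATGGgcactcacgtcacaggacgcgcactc
Dusp6: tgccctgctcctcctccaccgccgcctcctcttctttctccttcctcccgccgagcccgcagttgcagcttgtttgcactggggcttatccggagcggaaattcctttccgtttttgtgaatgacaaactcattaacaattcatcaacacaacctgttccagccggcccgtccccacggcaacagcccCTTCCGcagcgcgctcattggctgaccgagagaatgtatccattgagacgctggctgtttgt
The Dusp5 promoter holds 2 adjoining CArG boxes, the motif that serum response factor is known to bind, at 46 to 37 and 36 to 27 bases before that start. The RefSeq start of Dusp5 lies 36 bases further downstream. The Dusp6 promoter holds CGGAAG, a core letter string of ETS factors, on the minus strand at 62 to 57 bases before the start. Within 250 bases before the RefSeq start and on either strand, a CArG box was present in 1.47% of 32851 promoters and CGGAAG in 13.6%. The AP-1 string TGANTCA, present in 6.75% of all promoters, was found in none of the promoters of the members in the RefSeq table, which were those of Dusp5, Dusp6, Spry2, Spred1 and Etv5.

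Spry2 and Spred1, inhibitors of the cascade at the level of RAS and RAF, carried the 2 calls. Spry2 lies on chromosome 14 at 105891947 to 105896819 (minus strand) and Spred1 on chromosome 2 at 117121374 to 117182279 (plus strand). Their promoters are shown for comparison with those above, from chr14:105896820-105897069 on the minus strand and chr2:117120821-117121070 on the plus strand.
Spry2: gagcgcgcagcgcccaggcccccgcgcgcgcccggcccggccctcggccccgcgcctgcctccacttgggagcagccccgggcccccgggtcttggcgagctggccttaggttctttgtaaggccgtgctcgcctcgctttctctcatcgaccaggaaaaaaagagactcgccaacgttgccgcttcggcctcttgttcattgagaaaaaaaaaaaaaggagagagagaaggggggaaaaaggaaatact
Spred1: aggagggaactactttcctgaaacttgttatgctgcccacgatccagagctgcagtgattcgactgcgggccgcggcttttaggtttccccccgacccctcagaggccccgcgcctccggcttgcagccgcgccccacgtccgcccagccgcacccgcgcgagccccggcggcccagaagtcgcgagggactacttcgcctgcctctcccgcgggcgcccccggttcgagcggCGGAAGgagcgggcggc
The capitals in Spred1 mark CGGAAG at 17 to 12 bases before the RefSeq start, and none of the 3 motifs was present in the Spry2 window.

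Spry2 was lowest in the untreated tumours of the carbon-ion arm and highest in those of the photon arm. The carbon-ion controls ran from 20.5 to 35.2 CPM (median 28.6) and the photon controls from 29.1 to 51.8 (median 40.2). All 8 carbon-ion controls lay below the median of the photon controls and 4 lay below the lowest of them, so the groups overlapped in part. The log2 fold change, carbon-ion minus photon controls, was -0.52 (SE 0.12, edgeR adjusted p = 0.00698), a ratio of 0.699 with a 95% interval from 0.589 to 0.830. A two-sided exact permutation test of this gene alone gave p = 0.00357 (n = 8 per group). Spry2 ran from 25.3 to 43.2 CPM (median 29.5) after carbon ions and from 29.9 to 39.2 (median 33.3) after photons, and the irradiated groups differed by -0.17 (SE 0.12, edgeR adjusted p = 0.377).

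Within its own arm, Spry2 differed from the controls by 0.079 (SE 0.12, edgeR adjusted p = 0.997) for carbon ions and by -0.27 (SE 0.12, edgeR adjusted p = 0.192) for photons. All 8 photon-irradiated tumours lay below the median of the photon controls, and 0 lay below the lowest. The photon value had an unadjusted p of 0.0352, and the difference between the beam effects was 0.35 (SE 0.17, edgeR adjusted p = 0.388). By mean CPM the order was photon controls (41.3 ± 8.63, SD, n = 8), photon-irradiated (34.4 ± 4.20), carbon-ion irradiated (30.5 ± 5.64) and carbon-ion controls (28.9 ± 4.77), and no neighbours in this order passed the test.

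Spred1 had the same order at a higher level, with means of 183 ± 21.1, 162 ± 14.2, 147 ± 16.5 and 143 ± 14.7 CPM (SD, n = 8), and again no neighbours passed. It ran from 123 to 172 CPM (median 141) in carbon-ion controls and from 148 to 213 (median 182) in the photon controls. All 8 carbon-ion controls lay below the photon-control median, and 6 lay below the lowest photon control. The log2 fold change between these controls was -0.35 (SE 0.078, edgeR adjusted p = 0.00486), a ratio of 0.784 with a 95% interval from 0.703 to 0.876, and the exact permutation p was 0.00124 (two-sided, n = 8 per group). After carbon ions Spred1 ran from 129 to 169 CPM (median 148) and after photons from 142 to 184 (median 163). The carbon-ion effect was 0.034 (SE 0.078, edgeR adjusted p = 0.997), and 0.0017 to 0.076 in the fits without 1 library, and the photon effect -0.18 (SE 0.078, edgeR adjusted p = 0.182). With photons, 7 of 8 irradiated tumours lay below the control median, and an exact permutation test of Spred1 alone gave p = 0.0399 (n = 8 per group), unadjusted for the 10 genes. The beam effects on Spred1 differed by 0.21 (SE 0.11, edgeR adjusted p = 0.412).

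**Figure D2:**
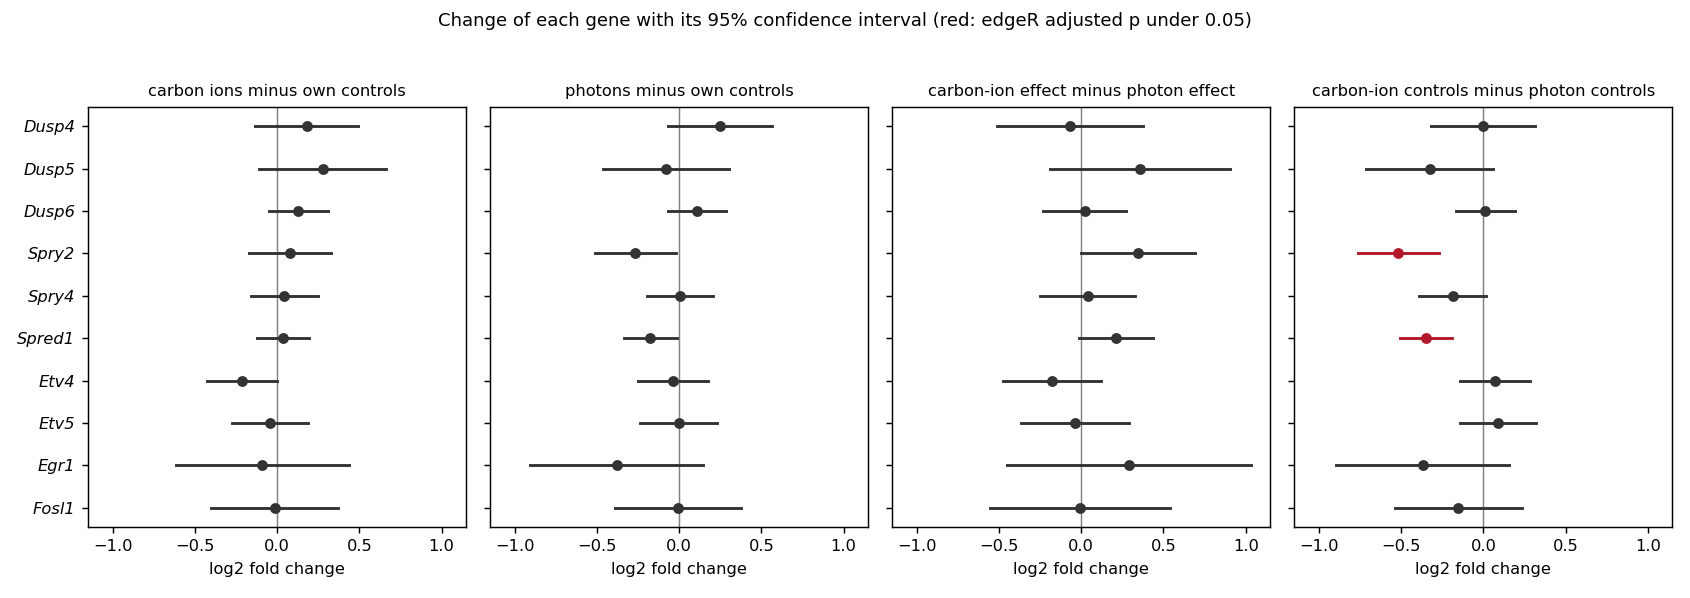
Log2 fold change (horizontal axis) of the 10 genes, with lines for the 95% confidence interval, for each beam against its own controls, for the difference of the beam effects and for the controls of both arms. In the panel of the controls the Spry2 (-0.52) and Spred1 (-0.35) points are red, which marks an adjusted p under 0.05, and no point is red in the other panels.

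Some marker scores also differed in their means between these controls, with overlapping libraries. The mean epithelial marker score was 7.09 log2 CPM (libraries from 6.64 to 7.51) in the carbon-ion and 6.66 (6.21 to 7.06) in the photon controls. The fibroblast score was 8.04 (7.43 to 8.65) and 8.46 (7.92 to 9.19), and the endothelial score 4.72 (4.34 to 5.29) and 5.14 (4.802 to 5.81). The T cell score was -0.60 and -0.045 (0 of 8 markers called, 3 at an unadjusted p under 0.05, 7 of 8 lower in the carbon-ion controls), and Cela1 stood at 3.05 and 3.55 log2 CPM. The macrophage (6.22 and 6.24) and skeletal muscle (4.77 and 4.89) scores lay close together, with 0 markers called. No marker on the epithelial, fibroblast, endothelial and T cell lists was at 0 in all libraries. Of the 10 epithelial markers 3 were called higher in the carbon-ion controls, and 2 of 10 fibroblast and 2 of 8 endothelial markers were called lower there. With the epithelial score as a covariate, the Spry2 difference was -0.44 (edgeR adjusted p = 0.0664) and the Spred1 difference -0.26 (edgeR adjusted p = 0.0691), and neither gene was called. With the endothelial score the values were -0.48 (edgeR adjusted p = 0.0503) for Spry2 and -0.26 (edgeR adjusted p = 0.0697) for Spred1. With the fibroblast score both genes were still called, at -0.46 and -0.27. Among libraries with M titles alone, Spry2 was called at -0.56 (edgeR adjusted p = 0.0462) and Spred1 was not, at -0.28 (edgeR adjusted p = 0.112). In each of the 16 fits without 1 control library both genes were called, with edgeR adjusted p up to 0.0271 for Spry2 and 0.0210 for Spred1.

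**Figure D3:**
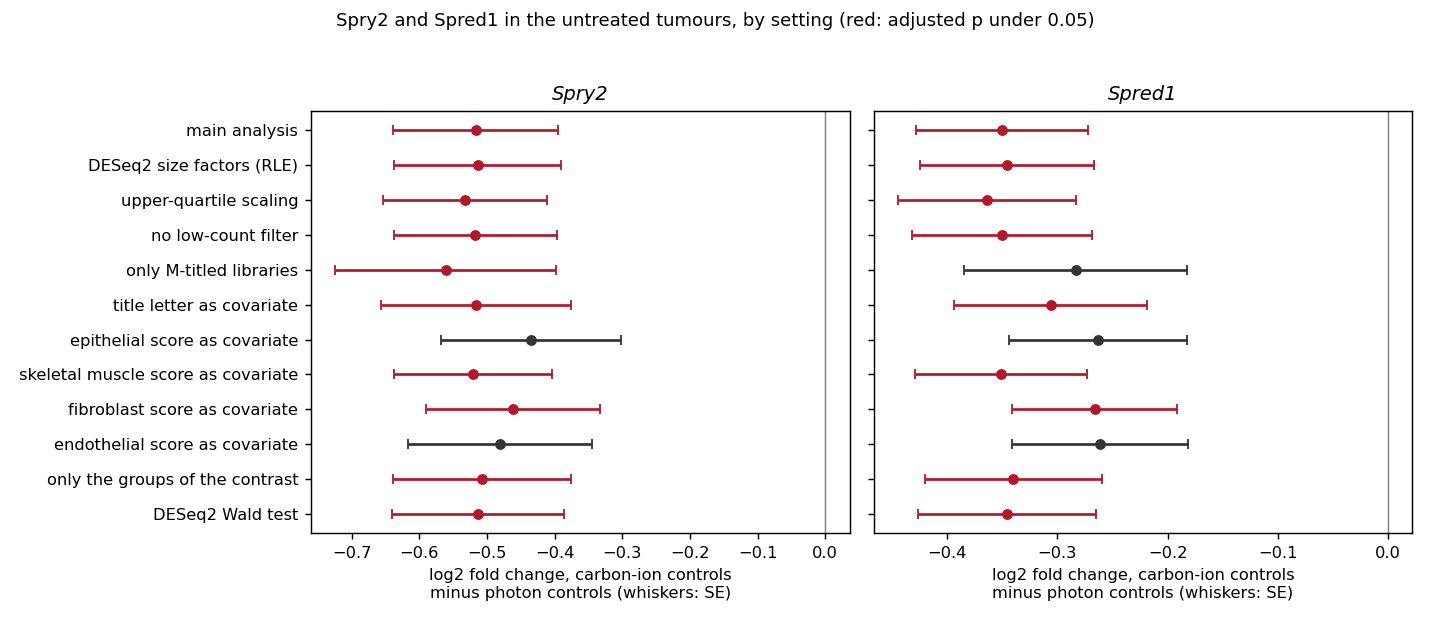
Log2 fold change of Spry2 and Spred1 (horizontal axis, carbon-ion minus photon controls, whiskers show the SE) under the main analysis and each alternative, red where the adjusted p was under 0.05. Every point lies below 0, from -0.56 to -0.44 for Spry2 and from -0.36 to -0.26 for Spred1, and the dark points are those with the epithelial or endothelial score as covariate and, for Spred1, the M-titled libraries alone.

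Spry4, a Sprouty protein of the same family as Spry2, gave no call. It lies on chromosome 18 at 38586247 to 38601415 and overlaps 2 small RNA genes on the other strand, Gm27369 and Gm27804. It ran from 38.8 to 53.7 CPM (median 47.9) in carbon-ion controls and from 42.5 to 65.3 (median 46.2) after carbon ions. It ran from 44.0 to 74.6 (median 50.95) in photon controls and from 46.8 to 59.5 (median 54.4) after photons. The groups overlapped widely in both arms. The log2 fold change of Spry4 was 0.043 (SE 0.10, edgeR adjusted p = 0.997) for carbon ions and 0.0048 (SE 0.10, edgeR adjusted p = 0.984) for photons, with intervals of the ratio from 0.895 to 1.19 and from 0.872 to 1.16. Between the controls it was -0.19 (SE 0.10, edgeR adjusted p = 0.264), and -0.090 without photon control replicate 6.

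Etv4 and Etv5, ETS factors of the PEA3 group that carry out part of the response to FGF and ERK signals, were not called in any of the comparisons. Etv4 (chromosome 11, 101769742 to 101785371) ran from 43.9 to 76.3 CPM (median 58.6) in carbon-ion controls and from 44.0 to 60.6 (median 49.7) after carbon ions. In the photon arm it ran from 47.1 to 70.9 (median 58.4) in controls and from 40.03 to 62.7 (median 58.1) after photons. In the carbon-ion arm 7 of 8 irradiated tumours lay below the control median. The carbon-ion effect on Etv4, -0.21 (SE 0.10), had an unadjusted p of 0.0480 and an edgeR adjusted p of 0.864, and among M-titled libraries alone it was 0.0056. The photon effect on Etv4 was -0.037 (SE 0.10, edgeR adjusted p = 0.875).

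Etv5 (chromosome 16, 22381309 to 22439719) had nearly equal medians of 88.8, 87.6, 83.6 and 87.5 CPM in untreated and irradiated tumours of the carbon-ion arm and untreated and irradiated tumours of the photon arm. Its lowest and highest libraries were at 66.2 and 122, 64.8 and 109.7, 78.4 and 99.1, and 64.7 and 98.8 CPM in the same order. The log2 fold changes of Etv5 were -0.044 (SE 0.11, edgeR adjusted p = 0.997) for carbon ions and -0.0038 (SE 0.11, edgeR adjusted p = 0.990) for photons. Among M-titled libraries alone the carbon-ion value was 0.14 (edgeR adjusted p = 0.772), and in the fits without 1 library it ran from -0.10 to 0.026. The intervals of the ratio, 0.826 to 1.14 and 0.849 to 1.17, were narrower than those of Egr1 and Fosl1.

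Egr1 and Fosl1 were the most variable of the transcription factors. Egr1 (chromosome 18, 34859823 to 34864984) is an immediate early gene, switched on within minutes by ERK and by the handling of tissue. It ran from 44.7 to 169.5 CPM (median 69.5) in the carbon-ion controls, from 63.2 to 99.6 (median 79.0) after carbon ions, from 52.7 to 215 (median 83.2) in photon controls and from 58.3 to 120.4 (median 75.1) after photons. The highest library stood 3.80 times above the lowest in the carbon-ion controls and 4.08 times in the photon controls, against 1.58 and 2.07 times in the irradiated groups. The effects on Egr1 were -0.090 (SE 0.26, edgeR adjusted p = 0.997) for carbon ions and -0.38 (SE 0.26, edgeR adjusted p = 0.411) for photons. The carbon-ion value ran from -0.19 to 0.13 in the fits without 1 library, and 6 of 8 carbon-ion irradiated tumours lay above the control median. Without photon control replicate 8, the highest of that group, the photon effect was -0.17. The interval of the photon ratio, 0.534 to 1.11, was the widest of the 10 genes together with that of carbon ions, 0.653 to 1.35.

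Fosl1 encodes FRA-1, an AP-1 subunit that is induced and stabilised by sustained ERK activity. It lies on chromosome 19 at 5447547 to 5455946, where Ccdc85b overlaps it on the other strand, and had the lowest CPM of the 10 genes. It ran from 19.2 to 31.9 CPM (median 21.8) in carbon-ion controls and from 15.8 to 34.8 (median 22.8) after carbon ions. In the photon arm it ran from 12.8 to 37.3 (median 24.8) in controls and from 13.4 to 35.4 (median 28.0) after irradiation. The effects on Fosl1 were -0.016 (SE 0.19, edgeR adjusted p = 0.997) and -0.0075 (SE 0.19, edgeR adjusted p = 0.988), with ratios between 0.757 and 1.29 and between 0.762 and 1.299 inside the intervals.

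The 10 genes differed in how much they varied among tumours of 1 group. The pooled SD of log2 CPM within groups was 0.152 for Spred1 and 0.170 for Dusp6. Of all genes tested, 8.48% had a lower SD than Spred1 and 13.3% a lower SD than Dusp6. Egr1, at 0.536, lay above 68.6% of the genes, and Dusp5 (0.410) and Fosl1 (0.407) lay above 56.1% and 55.8%. The median over all genes was 0.354, at a lower mean level than that of these 10 genes.

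This variation was shared in part. Group means were removed from log2 CPM, and each of the 45 pairs of genes was compared over the 32 tumours, with p-values from 100000 shuffles within groups and a Benjamini-Hochberg adjustment over the 45 pairs. The correlation passed in 11 pairs, all of them positive, and r over the 45 pairs had a median of 0.356 and ran from -0.289 to 0.777. All genes of a library share its depth, its scaling and its mix of cells. Over all 75479041 pairs of the 12287 genes with a mean log2 CPM of at least 2, r had a median of 0.043 and was positive in 54.9%. The lowest r that passed among the 45 pairs, 0.443, was reached or exceeded in 12.3% of those pairs and in 28.9% of the 45. Dusp5 was in 5 of the 11 pairs, Dusp4 and Spry4 in 3 each, and Etv5 in none.

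The closest pair was Dusp5 with Fosl1, with r = 0.78 and rho = 0.73 (permutation p = 1e-05 for each, the smallest that the shuffles can give, adjusted p = 0.00045). Without the 2 tumours farthest from the median of Dusp5, r was 0.69. Dusp4, Dusp6 and Spry4 formed a trio. Dusp4 with Spry4 had r = 0.73 and rho = 0.68 (permutation p = 7e-05 and 9e-05, adjusted p = 0.0015 and 0.00135), and r = 0.63 without the 2 farthest tumours. Dusp4 with Dusp6 had r = 0.72 and rho = 0.65 (permutation p = 0.0001 and 0.00025, adjusted p = 0.0015 and 0.00281), and r = 0.66 without the 2 farthest. Dusp6 with Spry4 had r = 0.65 and rho = 0.47 (permutation p = 0.00082 and 0.00881, adjusted p = 0.00683 and 0.0364), and r = 0.50 without the 2 farthest. Photon control replicates 4 and 6 were the 2 highest of their group for Dusp4, Dusp6 and Spry4 alike.

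The other 7 pairs that passed had r between 0.44 and 0.59. Etv4 with Fosl1 had r = 0.59 and rho = 0.67 (permutation p = 0.00037 and 5e-05, adjusted p = 0.00416 and 0.00113), and r = 0.60 without the 2 farthest tumours. Spry2 with Egr1 had r = 0.59 and rho = 0.57 (permutation p = 0.00228 and 0.00196, adjusted p = 0.0128 and 0.0098), and r = 0.59 without the 2 farthest. The remaining 5 were Dusp5 with Spry4 (r = 0.59), Spry2 (0.55), Dusp4 (0.53) and Etv4 (0.44), and Spred1 with Egr1 (0.47). Among the 12287 genes, ordered by r, the places of the partners in these 7 pairs ran from 22 (Spry2 for Egr1) to 896 (Etv4 for Dusp5). Fosl1 held place 88 for Etv4, Egr1 place 146 for Spry2 and place 768 for Spred1, and Dusp4 place 459 for Dusp5. For Spred1 with Egr1 r was 0.38 without the 2 farthest tumours. Among M-titled libraries alone Spry2 with Egr1 did not pass (permutation adjusted p = 0.0664). Dusp5 with Dusp4, Dusp5 with Etv4 and Spred1 with Egr1 did not pass there either (permutation adjusted p = 0.109 each). The 2 genes called between the controls, Spry2 and Spred1, had r = 0.43 and rho = 0.40 (permutation p = 0.0254 and 0.0373, adjusted p = 0.0683 and 0.0883) and did not pass.

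**Figure D4:**
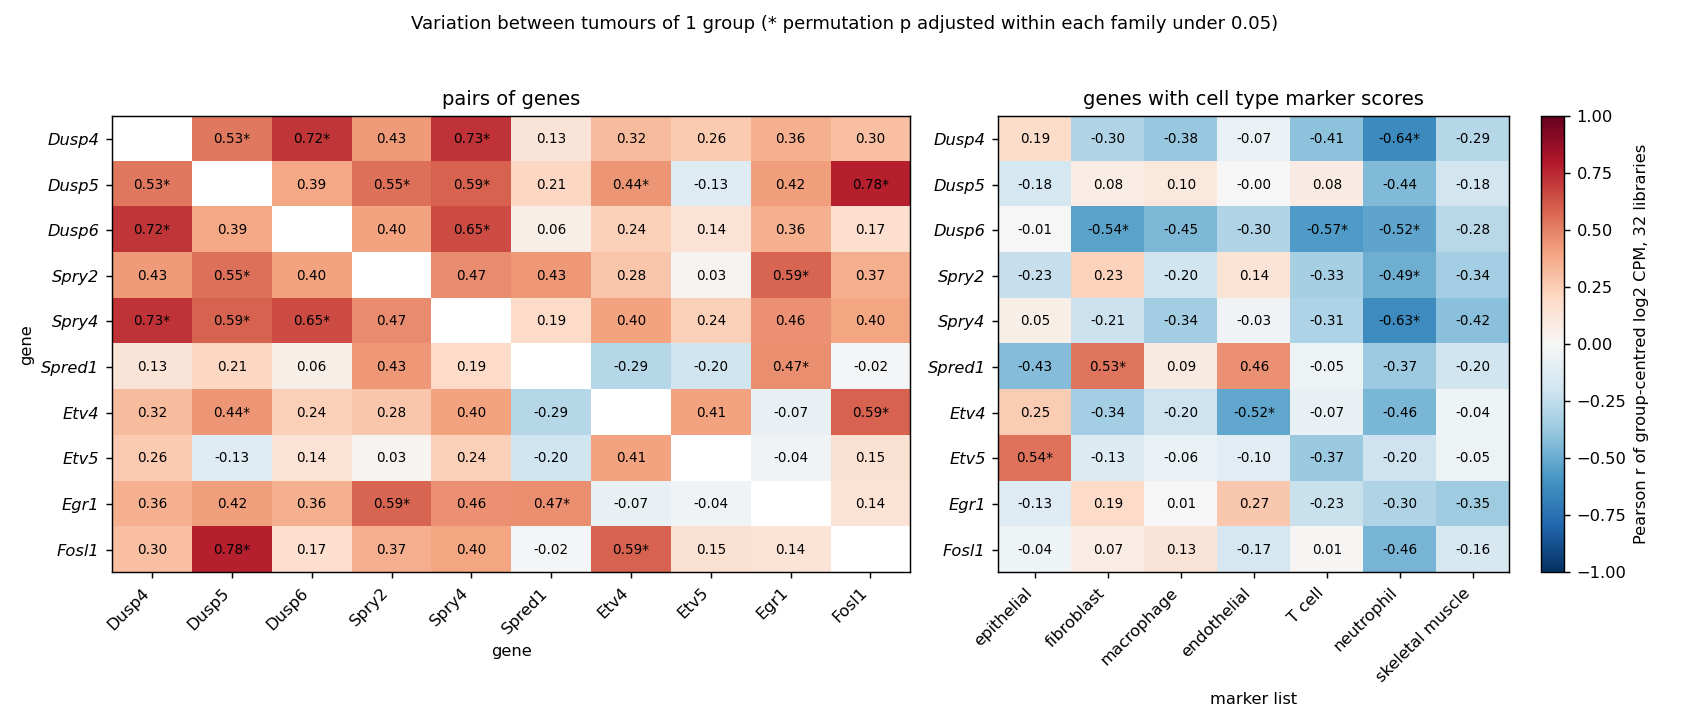
Pearson r of group-centred log2 CPM over 32 libraries (colour, from -1 to 1) for pairs of the 10 genes (left) and for each gene with 7 of the 9 cell type marker scores (right), with a star where the adjusted permutation p was under 0.05. The stars on the left are all on positive values, up to 0.78 for Dusp5 with Fosl1, and 7 of the 9 stars on the right are on negative values, 4 of them in the neutrophil column.

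The same variation was set against marker scores of 9 cell types, 90 pairs in all, of which 10 passed, 8 of them negative. How many of all genes go as closely with these scores was not counted, so the 10 cannot be called particular to these genes. The neutrophil score, the mean of 6 detected markers, fell where Dusp4 was high, with r = -0.64 and rho = -0.64 (permutation p = 0.0001 and 0.00012, adjusted p = 0.00765 and 0.0108, r = -0.63 without the 2 farthest tumours). Its relation to Spry4 was nearly the same, with r = -0.63 and rho = -0.65 (permutation p = 0.00017 and 0.00029, adjusted p = 0.00765 and 0.0131, r = -0.62 without the 2 farthest). The score also passed with Dusp6 (r = -0.52) and Spry2 (r = -0.49). These correlations are within groups, and the neutrophil score was itself lower after photons, as given above. The T cell score lay low, with group means from -0.86 to -0.045 log2 CPM, and after photons 2 of its 8 markers were called lower and 1 higher. Dusp6 was low where the T cell (r = -0.57) and fibroblast (r = -0.54) scores were high. Spred1 went the other way with fibroblasts, at r = 0.53 and rho = 0.47 (permutation p = 0.00355 and 0.0104, adjusted p = 0.0431 and 0.0850, r = 0.45 without the 2 farthest), and did not pass by ranks. Etv5 went with the epithelial score, at r = 0.54 and rho = 0.51 (permutation p = 0.00383 and 0.00814, adjusted p = 0.0431 and 0.0814, r = 0.52 without the 2 farthest), and Etv4 against the endothelial score at r = -0.52, which was -0.24 without the 2 farthest tumours. Dusp5 went against Cela1, the 1 detected acinar marker, at r = -0.60. By ranks 6 of the 90 pairs passed, and among M-titled libraries alone 2 passed, those of the neutrophil score with Dusp4 and Spry4. The part of the cell mix in the levels of these genes was not tested further.

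**Figure D5:**
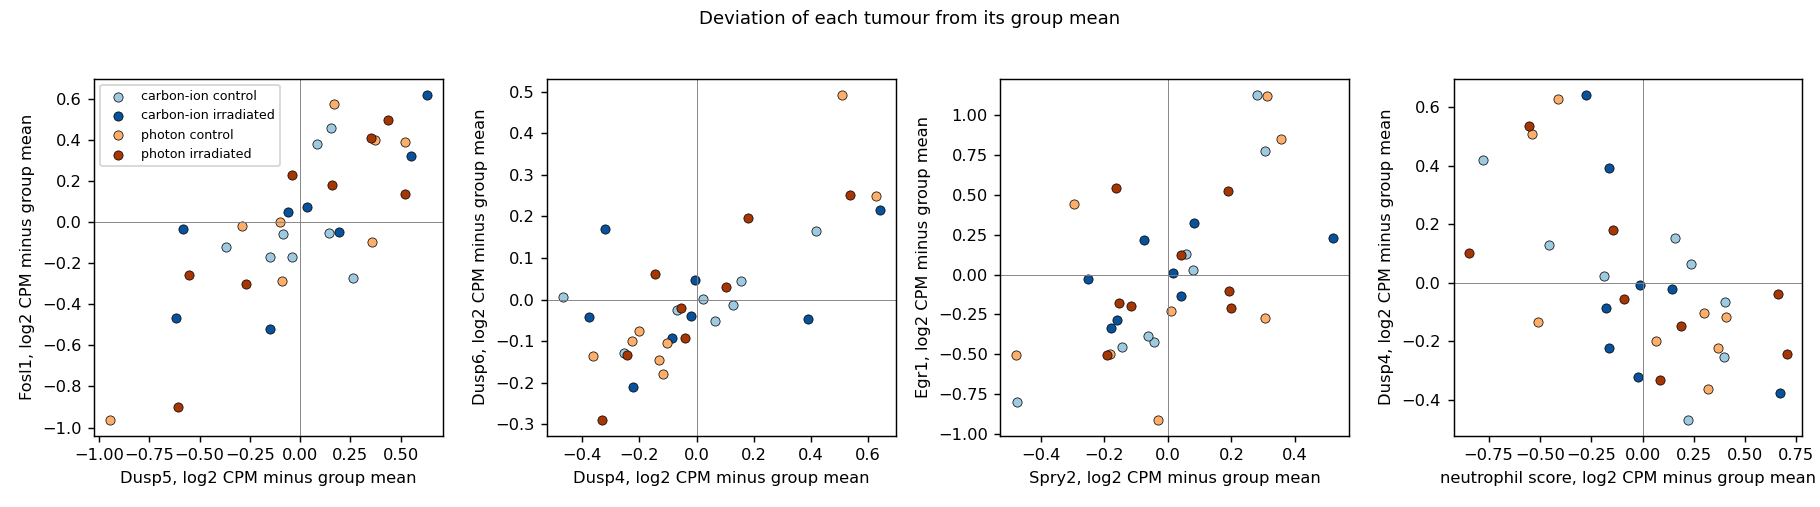
Deviation of each tumour from the mean of its group in log2 CPM (both axes, 32 points, colour gives the group) for Fosl1 against Dusp5, Dusp6 against Dusp4, Egr1 against Spry2, and Dusp4 against the neutrophil marker score. Over the 32 points together the values rise in the first 3 panels (r = 0.78, 0.72 and 0.59) and fall in the last (r = -0.64). No r was computed within a single group.

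The 3 genes with the most similar pattern are given for Dusp6, Egr1, Etv4 and Fosl1, by Pearson r of group-centred log2 CPM over the 32 libraries among 12287 genes of sufficient level. Egr1 was closest to other immediate early genes, Egr2 (r = 0.88), Fosb (0.85) and Nr4a1 (0.81). Dusp6 was closest to Cttnbp2nl (0.74), Dusp4 (0.72) and Junb (0.72), so that another of the 10 genes ranked at place 2. Fosl1 was closest to Nde1 (0.86), Rai14 (0.84) and Mfhas1 (0.84), and Etv4 to Scrib (0.77), Zfp598 (0.76) and Rap1gap2 (0.75). Dusp5 was at place 24 for Fosl1, Fosl1 at place 21 for Dusp5, and Dusp6 at place 63 for Dusp4. For the other 6 genes the closest was Smox for Dusp4 (0.86), Parvb for Dusp5 (0.87), Wipi1 for Spry2 (0.78), Rhob for Spry4 (0.82), Soga1 for Spred1 (0.82) and Ifngr2 for Etv5 (0.88), none of them among the 10. These 6 were named after their values were seen. These values describe the 32 libraries and carry no p.

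The rest of the cascade was followed through 6 lists with 80 genes, of which 77 were tested. Carbon ions gave 0 calls among the 77 by edgeR, with 8 at an unadjusted p under 0.05 (5.75% of all genes), and a median log2 fold change of 0.040. Photons gave 1 higher and 1 lower call, beside 3.81% called among all genes, with 15 of the 77 at an unadjusted p under 0.05 (21.5% of all genes) and a median of 0.036. Araf, one of the RAF kinases, rose from 68.8 ± 7.30 CPM in the photon controls to 84.9 ± 10.7 after photons (SD, n = 8), with a range from 59.7 to 80.2 in controls and from 72.04 to 104 after irradiation. Its log2 fold change was 0.30 (SE 0.075, edgeR adjusted p = 0.0219). The carbon-ion arm, at 85.4 ± 6.32 and 83.8 ± 7.22 CPM, lay at the level of the photon-irradiated tumours. Pdgfrb, a receptor tyrosine kinase of fibroblasts and pericytes, fell from 173 ± 40.1 to 120.98 ± 24.6 CPM (SD, n = 8), by 0.52 (SE 0.13, edgeR adjusted p = 0.0265). Pdgfrb is also on the fibroblast marker list, of which 2 of 10 genes were called lower after photons and 10 of 10 had a negative log2 fold change.

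With the fibroblast score as a covariate, Araf stood at 0.19 (edgeR adjusted p = 0.257) and Pdgfrb, which is itself part of that score, at -0.26 (edgeR adjusted p = 0.308). With the endothelial score they stood at 0.22 (edgeR adjusted p = 0.231) and -0.23 (edgeR adjusted p = 0.421). Of the 16 fits without 1 library, 13 called Araf and 11 called Pdgfrb. Araf was not called without photon control 3 or 8 or photon-irradiated replicate 1, and Pdgfrb not without photon control 3 or 8 or photon-irradiated replicate 1, 7 or 8. Pdgfrb was also lower in the mean effect of irradiation, by 0.41 (SE 0.094, edgeR adjusted p = 0.0354), the 1 call among the 77 there. It was called in 19 of 32 fits without 1 library, and not among M-titled libraries alone (-0.38, edgeR adjusted p = 0.151) nor with the epithelial (-0.37, edgeR adjusted p = 0.0889), endothelial (-0.25, edgeR adjusted p = 0.185) or fibroblast score (-0.26, edgeR adjusted p = 0.138). The difference between the beam effects gave 0 calls among the 77 by edgeR, with 8 at an unadjusted p under 0.05, beside 13% of all genes. The irradiated groups set against each other gave 3 calls among the 77, all lower in the carbon-ion arm, beside 1.54% of all genes called lower. At an unadjusted p under 0.05 there were 15 of the 77, beside 25.2% of all genes.

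By list, photons called 0 of 7 EGF family ligands, 1 of 12 receptor tyrosine kinases and 0 of 14 genes of RAS and its regulators. They also called 1 of 13 kinases and scaffolds of the RAF-MEK-ERK chain, 0 of 14 other feedback genes and 0 of 17 other ERK target genes. The genes with the smallest p in the lists without a call had these log2 fold changes for photons. Among ligands Btc had 0.39 (SE 0.12, edgeR adjusted p = 0.0634) and Nrg1 -0.43 (SE 0.16, edgeR adjusted p = 0.103). Among RAS regulators Rasgrp1, a RAS exchange factor, had -0.40 (SE 0.15, edgeR adjusted p = 0.106) and Rasa1, a RAS GTPase-activating protein, 0.20 (SE 0.075, edgeR adjusted p = 0.113). On the list of other feedback genes the phosphatases Dusp7 and Dusp16 had -0.31 (SE 0.13, edgeR adjusted p = 0.149) and 0.22 (SE 0.12, edgeR adjusted p = 0.272). Among targets the matrix proteases Mmp3 and Mmp13 had -1.88 (SE 0.63, edgeR adjusted p = 0.0778) and -0.92 (SE 0.35, edgeR adjusted p = 0.117), and without photon control 3 these were -0.97 and -0.12. None of these 8 genes passed. In the fits without 1 library Mmp3 was called in 2 of 16 (without photon control 2, edgeR adjusted p = 0.0424, and without photon-irradiated replicate 5, at -2.26), Btc in 1 (0.52 without photon control 4, edgeR adjusted p = 0.0120), and the other 6 in none. The DESeq2 test called Btc (adjusted p = 0.0383) and Mmp3 (adjusted p = 0.0391), and with upper-quartile scaling Btc was called (edgeR adjusted p = 0.0297). With only the photon groups in the fit Nrg1 was called, at -0.42 (edgeR adjusted p = 0.0338).

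Between the controls of the arms 9 of the 77 genes were called, 4 with a higher and 5 with a lower level in the carbon-ion arm, beside 9.14% of all genes (5.13% higher and 4.01% lower). Named here, after their values were seen, are the 2 with the smallest p in each direction. Among the higher ones Araf had a log2 fold change of 0.31 (SE 0.075, edgeR adjusted p = 0.00787), in a comparison that shares the photon controls with the photon effect above. Map2k2, which encodes the kinase MEK2, had 115.96 ± 12.0 CPM in the carbon-ion and 94.5 ± 8.22 CPM in the photon controls (SD, n = 8), a log2 fold change of 0.30 (SE 0.078, edgeR adjusted p = 0.0153). Both were called in each of the 16 fits without 1 library. Neither was called among M-titled libraries alone (edgeR adjusted p = 0.0833 for Araf and 0.0669 for Map2k2) or with the endothelial score (0.0951 and 0.0936). The call of Araf was also lost with the fibroblast score (edgeR adjusted p = 0.0850) and with the title letter as covariate (0.0604), and that of Map2k2 with the epithelial score (0.109). Among the lower ones Egfr, the EGF receptor, had 84.3 ± 10.97 CPM in the carbon-ion and 117.2 ± 18.9 CPM in the photon controls (SD, n = 8), a log2 fold change of -0.48 (SE 0.11, edgeR adjusted p = 0.00472). Il17rd, a feedback inhibitor of FGF and ERK signalling, had 16.1 ± 4.31 and 27.2 ± 7.96 CPM, a log2 fold change of -0.75 (SE 0.19, edgeR adjusted p = 0.0109). Egfr and Il17rd were also called in each of the 16 fits without 1 library. Among M-titled libraries alone they had -0.39 (edgeR adjusted p = 0.0669) and -0.75 (edgeR adjusted p = 0.0660), and with the endothelial score as covariate -0.33 (edgeR adjusted p = 0.0742) and -0.60 (edgeR adjusted p = 0.105). For Il17rd the call was also lost with the epithelial (edgeR adjusted p = 0.106) and the fibroblast score (edgeR adjusted p = 0.0592).

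Immediate early genes, which respond to ERK and to stress alike, were followed as a separate list of 16 tested genes. Carbon ions and photons gave 0 calls each by edgeR, with 1 and 4 of the 16 at an unadjusted p under 0.05 (5.75% and 21.5% of all genes), and median log2 fold changes of 0.067 and -0.15. For photons the smallest p-values belonged to Egr3, at -0.67 (SE 0.21, edgeR adjusted p = 0.0588), and to Egr2, at -0.72 (SE 0.22, edgeR adjusted p = 0.0605). Egr3 ran from 8.69 to 29.1 CPM (median 14.1) in photon controls and from 7.68 to 13.7 (median 10.9) after photons. Egr2 ran from 11.9 to 38.7 CPM (median 18.3) in photon controls and from 9.63 to 22.5 (median 12.6) after photons. Without photon control 2 both were called, Egr3 at -0.77 (edgeR adjusted p = 0.0187) and Egr2 at -0.82 (edgeR adjusted p = 0.0231), and Egr2 was also called without photon-irradiated replicate 5, at -0.86 (edgeR adjusted p = 0.0285). Without photon control 8 they stood at -0.51 and -0.56 and were not called. The DESeq2 test called both (adjusted p = 0.0312 for Egr3 and 0.0324 for Egr2). As with Egr1, the high values were those of a few untreated tumours. Between the controls 1 gene of this list was called higher and 3 lower in the carbon-ion arm, beside 5.13% and 4.01% of all genes. Between the irradiated groups 1 was called lower in the carbon-ion arm, beside 1.54% of all genes.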

How the data were processed

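Bulk RNA-seq of 32 KPC36 tumours was analysed, 8 per group, with groups taken from the treatment label. Replicate numbers follow the order of deposition, and nothing states that libraries came from separate animals, so p-values measure the spread between these libraries. Tumours were collected at days 4 and 7, per the design text, but the day of a library is not part of the labels used here, and no comparison by day was made. The meaning of the title letters D and M is not stated. RNA came from tissue kept in RNAlater, and stranded mRNA libraries were made, per the labels' protocols. Values in the deposited table are estimated counts of reads per gene symbol, which the authors call raw. The submitters' processing notes name FastQC 0.12.0, Trimmomatic 0.32, RSEM 1.3.3 and the build mm10, without their order or settings, and the use of strand is not given in the sources used here. Reads divided among transcripts make genes that overlap or resemble others less certain.

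Estimated counts were rounded, which moved a library total by at most 0.00403%, and analysed in R 4.3.3 with edgeR 4.0.16: filterByExpr (minimum count 10), scaling by trimmed mean of M values (TMM), glmQLFit and glmQLFTest with 1 coefficient per group, and Benjamini-Hochberg adjustment over the 20474 genes of each contrast. SEs and 95% intervals follow from the F statistic. CPM are relative to the scaled library totals, and log2 CPM used a prior count of 2. Totals ran from 25983694 to 44819131 in carbon-ion controls, 22777950 to 71645903 in carbon-ion irradiated, 17954086 to 51288223 in photon controls and 13891863 to 48229979 in photon-irradiated libraries. Marker scores are mean log2 CPM over tested markers. Counting error covers sampling of reads only. Coordinates and exon lengths come from GENCODE M21 (GRCm38), and promoters from RefSeq (GRCm38.p6), in which 5 of the 10 genes were matched.

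The 10 genes and all lists were chosen with earlier results of these data known. The text names the 10 genes, every pathway gene called for a beam, the beam difference or the mean effect, and otherwise the 2 genes of a list with the smallest p for photons. Between the controls it names the 2 with the smallest p in each direction, chosen after their values were seen. 1 further result is not reported here. By the same rule the 3 most similar genes are given for Dusp6, Egr1, Etv4 and Fosl1, among genes whose log2 CPM averaged 2 or more, and the closest gene of the other 6 was added later. Alternatives were DESeq2 1.42.0 as size factors and as test, upper-quartile scaling, no low-count filter, M-titled libraries only, title letter or marker scores as covariates, only the groups compared, ranks in place of Pearson's r, and each library left out. The fit and the correlation test were also run on simulated data. The changes planted there were larger than any beam effect on the 10 genes, so the detection of effects of that size was not tested.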

Additional observations from a re-analysis of the deposited data

Results flagged for a closer look

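Of the 40 combinations of gene and group, 2 held a library far from the other 7, where chance alone flags about 1 in 20 groups, and the gap to the nearest library exceeded 0.526 of the group's range. Spry2 stood at 43.22 CPM in carbon-ion irradiated replicate 8, with the next library at 31.86 and a gap of 0.634 of the range. Spry4 stood at 65.31 CPM in carbon-ion irradiated replicate 4, with the next library at 50.35 and a gap of 0.657 of the range. Without these libraries the carbon-ion effect was -0.0059 for Spry2 and -0.033 for Spry4, and neither gene was called with or without them.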

How the results depend on the processing

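The counts of calls among the 10 genes held in every fit without 1 library, at 2 for the comparison of the controls and 0 in the other contrasts. The count of 2 moved to 1 in M-titled libraries alone and to 0 with the epithelial and with the endothelial score as covariate, and stayed 2 or 0 otherwise, as in the main analysis. Of the pairs of genes that varied together, 7 passed in M-titled libraries alone in place of 11. Of the pairs of genes and marker scores, 6 passed by ranks and 2 in M-titled libraries alone in place of 10. No paired analysis was possible because the replicate numbers only name libraries in accession order, so none are matched across groups. The fibroblast and endothelial covariates, the ranks for marker scores and the alternatives for the pathway genes were chosen after seeing the data. The carbon-ion effect called 0 genes, 17 with the DESeq2 test, and, without 1 library, 0 to 5 (carbon-ion irradiated 2). The photon effect called 781 genes, 431 without the low-count filter, 233 with the muscle score, 54 with the fibroblast score, 39 with the endothelial score and 1518 with the DESeq2 test, and, without 1 library, 239 (photon control 3) to 1656 (photon control 2). The difference of the beam effects called 16 genes, 94 with upper-quartile scaling, 4 without the low-count filter, 1 in M-titled libraries alone, 66 with the epithelial score, 7 with the muscle score, 8 with the fibroblast score, 1 with the endothelial score and 270 with the DESeq2 test, and, without 1 library, 5 (carbon-ion control 8) to 108 (photon control 2). The comparison of the controls called 1871 genes, 973 in M-titled libraries alone, 1081 with the title letter as covariate, 595 with the epithelial score, 671 with the fibroblast score and 515 with the endothelial score, and, without 1 library, 1178 (photon control 3) to 2180 (carbon-ion control 5). The comparison of the irradiated groups called 1041 genes, 319 without the low-count filter, 502 with the title letter as covariate, 69 with the epithelial score, 3 with the muscle score, 57 with only the groups compared and 2018 with the DESeq2 test, and, without 1 library, 108 (photon-irradiated 3) to 2159 (carbon-ion irradiated 3). The mean effect called 158 genes, 9 in M-titled libraries alone, 98 with the title letter as covariate, 83 with the epithelial score, 66 with the muscle score, 70 with the fibroblast score, 46 with the endothelial score and 468 with the DESeq2 test, and, without 1 library, 65 (photon control 8) to 397 (photon control 2). Under upper-quartile scaling the share of higher calls was 59% in place of 44.9% for photons, 23.4% in place of 43.8% for the difference of the beam effects and 49.1% in place of 69.7% for the irradiated groups. The sign of a log2 fold change turned in 59 cases outside the fits without 1 library, none of them past the threshold. With DESeq2 size factors, these were Etv5 0.0057 and Fosl1 0.0032 in the photon effect, Dusp4 0.00057 in the comparison of the controls. With upper-quartile scaling, these were Etv4 0.0085, Etv5 0.032 and Fosl1 0.042 in the photon effect, Dusp6 -0.034 and Spry4 -0.015 in the difference of the beam effects, Dusp6 -0.0020 in the comparison of the controls, Dusp5 -0.027, Dusp6 -0.036 and Etv5 -0.028 in the comparison of the irradiated groups, Fosl1 0.0071 in the mean effect. In M-titled libraries alone, these were Etv4 0.0056, Etv5 0.14 and Fosl1 0.14 in the carbon-ion effect, Dusp4 0.15, Etv4 0.042, Etv5 0.14 and Fosl1 0.14 in the difference of the beam effects, Dusp6 -0.022 and Etv4 -0.048 in the comparison of the controls, Dusp4 0.095 in the comparison of the irradiated groups, Etv5 0.069 and Fosl1 0.068 in the mean effect. With the title letter as covariate, these were Dusp4 0.072 and Dusp6 -0.021 in the comparison of the controls. With the epithelial score, these were Spry4 -0.00057 and Fosl1 0.0057 in the photon effect, Etv5 -0.082 in the comparison of the controls, Etv5 -0.13 and Egr1 0.043 in the comparison of the irradiated groups. With the muscle score, these were Spry4 -0.10 in the photon effect, Dusp4 0.041 and Fosl1 0.088 in the difference of the beam effects, Dusp4 0.0013 in the comparison of the controls, Dusp4 0.042 and Egr1 0.14 in the comparison of the irradiated groups, Spry4 -0.031 in the mean effect. With the fibroblast score, these were Dusp6 -0.0026, Spry4 -0.053 and Fosl1 0.056 in the photon effect, Dusp4 0.023 in the difference of the beam effects, Dusp6 -0.084 and Etv4 -0.011 in the comparison of the controls, Spry4 -0.011 and Fosl1 0.023 in the mean effect. With the endothelial score, these were Spry4 -0.011 in the photon effect, Fosl1 0.076 in the difference of the beam effects, Dusp6 -0.055 and Etv4 -0.081 in the comparison of the controls. With only the groups compared, these were Etv5 0.00028 in the photon effect, Dusp4 0.0083 in the comparison of the controls. With the DESeq2 test, these were Etv5 0.0060 and Fosl1 0.0037 in the photon effect, Dusp4 0.00027 in the comparison of the controls. As a difference of mean log2 CPM, these were Egr1 0.034 in the carbon-ion effect, Fosl1 0.00078 in the photon effect, Dusp4 0.019 in the comparison of the controls. Without 1 library a sign turned in 94 cases, none past the threshold, and the lowest and highest values of the genes concerned follow. In the carbon-ion effect these were Etv5 -0.10 to 0.026, Egr1 -0.19 to 0.13, Fosl1 -0.12 to 0.060, Spry4 -0.033 to 0.072 and Spry2 -0.0059 to 0.13. In the difference of the beam effects these were Etv5 -0.10 to 0.030, Fosl1 -0.12 to 0.095, Dusp6 -0.068 to 0.057, Spry4 -0.051 to 0.076 and Dusp4 -0.19 to 0.021. In the comparison of the controls these were Dusp6 -0.014 to 0.11 and Dusp4 -0.068 to 0.13. In the mean effect these were Etv5 -0.052 to 0.011, Fosl1 -0.063 to 0.039 and Spry4 -0.011 to 0.068. In the comparison of the irradiated groups these were Dusp5 -0.062 to 0.12, Egr1 -0.14 to 0.015 and Dusp4 -0.18 to 0.034. In the photon effect these were Spry4 -0.032 to 0.093, Fosl1 -0.11 to 0.10, Dusp5 -0.18 to 0.012, Etv4 -0.067 to 0.025 and Etv5 -0.029 to 0.052. The causes were not tested. The 95% interval of the ratio reached from 0.534 to 1.11 for Egr1 after photons and from 0.881 to 1.03 for the mean effect on Spred1.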
